A study of Mus musculus with 16 samples.

Results

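Collagen genes were the genes of the array whose only symbol follows the collagen pattern, a type number followed by a chain number, as in Col1a1. Of the 19938 genes compared, 44 met this rule, read by 46 probe sets. Col6a5 and Col6a6 had 2 probe sets each, and the one with the higher mean over all arrays was used. By the structures their chains form, 11 genes are fibrillar collagens, 6 are the type IV chains of basement membranes and 27 are of other types. Expression was measured as total RNA on 16 arrays of cultured mouse embryonic fibroblasts, with 1 array for each plate. A control line was wild type and carried a scramble short hairpin RNA, and a knockdown line was made with a stable hairpin against Atf5, which encodes a stress-responsive transcription factor. This follows the genotype labels; the growth notes can also be read as naming the Atf5 hairpin for both lines, a doubt that bears on each line comparison. Each line was held for 8 h with DMSO vehicle or with 1 µM MG132, a proteasome inhibitor, which gave 4 groups of 4 arrays. The labels name 1 line of each kind, so a difference between the lines cannot be told apart from a difference between those cultures that arose without the hairpin, and they do not say that plates of a group were separate cultures, so the spread behind each p-value is that among these arrays and may be technical.

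Collagens are extracellular proteins whose chains wind around each other into helices. Fibrillar collagens, types I, III and V among them, pack into the tension-bearing fibrils of skin, tendon and bone, and fibroblasts are a main source of them. Type IV collagen forms the sheet-like network of basement membranes, the thin matrix under epithelia and around vessels and muscle. The other types bind to fibrils, form beaded filaments or anchoring fibrils, or remain in the cell membrane. New chains are hydroxylated, folded and glycosylated in the endoplasmic reticulum, exported in enlarged vesicles, trimmed outside the cell and cross-linked.

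Promoter sequence is shown for the members the results turn on, since Col4a1 and Col4a2 share a start region, Col1a2 had the lowest difference with MG132, Col6a3 the lowest between the lines and Col8a1 the smallest p for the difference of responses. All sequences are from RefSeq, build GRCm38.p6, written 5′ to 3′ on the strand of the gene, and end at the base before the start of transcription unless stated. RefSeq's promoter table held 35 of the 44 genes, in 38 windows. Capitals mark CCAAT, a box found in many promoters, in Col1a2, and the GC box in Col8a1, here read as CCGCCC. No searched motif lay in the Col6a3 stretch, which says only that these letters are not there. The Col1a2 stretch is chr6:4505498-4505617 on the plus strand, the Col8a1 stretch chr16:57754738-57754857 on the minus strand and the Col6a3 stretch chr1:90843972-90844091 on the minus strand.
Col1a2: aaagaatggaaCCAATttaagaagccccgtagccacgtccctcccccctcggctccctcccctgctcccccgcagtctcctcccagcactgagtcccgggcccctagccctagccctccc
Col8a1: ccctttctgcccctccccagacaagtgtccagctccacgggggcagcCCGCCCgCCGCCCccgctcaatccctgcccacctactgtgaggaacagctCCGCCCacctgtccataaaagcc
Col6a3: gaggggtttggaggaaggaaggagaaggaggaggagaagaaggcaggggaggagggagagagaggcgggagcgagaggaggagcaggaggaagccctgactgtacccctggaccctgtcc

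Col4a1 and Col4a2 lie head to head and are transcribed away from each other. The first bases of their annotated transcripts overlap in 22 bases, chr8:11312805-11312826, printed on the plus strand with the GC box GGGCGG in capitals.
Col4a1 and Col4a2: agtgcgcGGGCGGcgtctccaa

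Over all collagen windows, read on both strands, GGGCGG was held by 23 of 38 (60.5%), against 35.7% of all 32851 windows in the table. CCAAT stood in 34.2% of collagen windows and 37.4% of all, and TATAAA in 13.2% and 13.6%. The CRE palindrome TGACGTCA was in 1 collagen window (2.6% against 1.8%). TGATGNAA, a form of the site bound by ATF and C/EBP pairs, was in 0 of 38, against 4.0% of all. These matches are descriptions of letters and no site of binding was measured.

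Array medians lay between 7.71 and 7.82 log2 units, and the number of arrays limits the precision. Values are log2 intensities, and they set no probe set's level against another's. The Atf5 probe set was lower in the knockdown line by 0.22 ± 0.05 log2 (SE, adjusted p = 0.00321, limma) with vehicle and by 0.31 (adjusted p = 0.000148) with MG132. Of the 12 fibroblast markers Lum, Fap and Postn had group means under 6.71, the 25th percentile of the gene means, in each group, and the other 9 lay above it; without detection calls this does not show absence. Inside the groups the arrays lay along a gradient that took 37.8% of the within-group variance. Control MG132 array 4 and knockdown vehicle array 1 lay farthest toward its low end, and control vehicle array 1 came next.

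**Figure D1:**
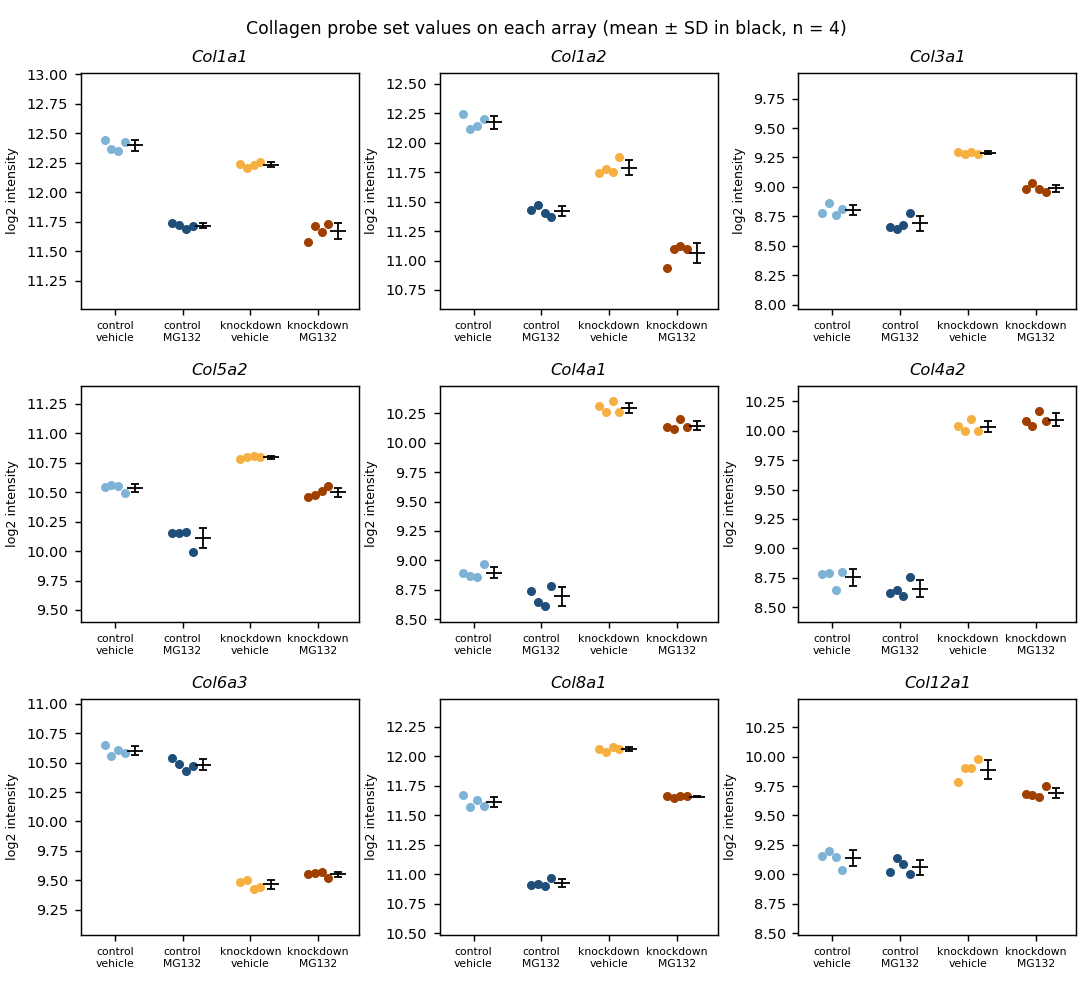
Each point is 1 array and the black bars give the mean ± SD of a group (n = 4), for 9 collagen genes of the text (vertical axis, log2 intensity, with its own range for each gene). The 4 arrays of Col1a2 with MG132 lie below those with vehicle in each line, and Col4a1 separates the lines by 1.40 log2 with vehicle.

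In control cells MG132 was followed by lower readings of the fibrillar collagens with the brightest probe sets and of type VIII collagen. Col1a2 fell by 0.76 log2, Col1a1 by 0.68 and Col8a1 by 0.69, which are 1.69-fold, 1.60-fold and 1.61-fold decreases. Of the 44 collagens 11 fell (25%, limma adjusted p under 0.05), against 19.0% of all genes, so their share was near the background. None rose by the same test and 0 rose at an unadjusted p under 0.05, against 16.8% of all genes called higher. The decrease was unevenly spread over the classes: 6 of 11 fibrillar collagens, 2 of 6 type IV chains and 3 of 27 others fell. The classes were not compared at a like level of their probe sets. Of the 11 collagens with means above 9 log2, 8 fell, beside 34.9% of all such genes. Of the other 33, 3 fell, beside 7.8%. The median difference over the 44 was 0.01 log2, beside 0.03 over all genes.

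Col1a2 and Col1a1 encode the chains of type I collagen, the main protein of fibrils. With vehicle the 4 control arrays read 12.24, 12.12, 12.14 and 12.20 for Col1a2, and with MG132 11.43, 11.47, 11.40 and 11.37. Control arrays of Col1a1 read 12.44, 12.37, 12.35 and 12.43 with vehicle and 11.74, 11.72, 11.69 and 11.71 with MG132. For both chains every MG132 array lay below every vehicle array, with an adjusted p of 1e-09 for Col1a2 and 2.04e-10 for Col1a1.

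Type V chains, which start fibrils inside type I collagen, were lower too. Col5a2 read 10.54, 10.56, 10.55 and 10.49 in control vehicle arrays and 10.15, 10.15, 10.16 and 9.99 with MG132, a fall of 0.42 ± 0.04 log2 (SE, adjusted p = 1.28e-07). Col5a1 fell by 0.22 (adjusted p = 0.000238), from 9.48, 9.39, 9.37 and 9.37 to 9.14, 9.20, 9.19 and 9.20. Neither gene's groups overlapped.

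Col3a1, the type III chain of elastic tissues, and Col11a1, a type XI chain of cartilage fibrils, had small decreases that single arrays decided. Col3a1 fell by 0.11 (adjusted p = 0.0183), from 8.78, 8.86, 8.76 and 8.81 to 8.66, 8.64, 8.68 and 8.78, and its groups overlapped. The call was lost without control vehicle 2 (adjusted p = 0.0672), control MG132 1 (0.0561) or control MG132 2 (0.059). It was lost as well with only the groups compared (adjusted p = 0.0769) and with a trended robust prior (0.0566). Col11a1 fell by 0.22 (adjusted p = 0.0159), from 8.45, 8.33, 8.38 and 8.53 to 8.25, 8.11, 8.15 and 8.29. Without control vehicle 4 its adjusted p was 0.0581, and without control MG132 2 it was 0.0519. The fibrillar genes that did not pass were Col2a1, Col5a3, Col11a2, Col24a1 and Col27a1.

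Among the type IV chains, Col4a1 fell by 0.20 (adjusted p = 0.000791), from 8.89, 8.87, 8.86 and 8.97 to 8.74, 8.65, 8.61 and 8.78. Col4a2, the chain that pairs with Col4a1 in most basement membranes, differed by -0.10 (adjusted p = 0.109), and its groups overlapped. Col4a5 fell by 0.17 (adjusted p = 0.02), from 8.81, 8.88, 8.83 and 8.90 to 8.75, 8.73, 8.51 and 8.75. This call was lost without control vehicle 2 (adjusted p = 0.0502), control vehicle 4 (0.0573) or control MG132 3 (0.0677), the low array of the group, and also without the 4 arrays control vehicle 1 and 4, knockdown vehicle 1 and control MG132 4 (0.0577).

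Of the 27 other collagens Col8a1, Col6a1 and Col6a3 fell. Col8a1, a short-chain collagen found in corneal and vascular matrix, read 11.67, 11.57, 11.63 and 11.58 with vehicle and 10.91, 10.92, 10.90 and 10.97 with MG132 (adjusted p = 2.56e-11). Col6a1, a chain of the beaded filaments of type VI collagen, fell by 0.24 (adjusted p = 0.000957), from 10.35, 10.42, 10.46 and 10.47 to 10.21, 10.22, 10.15 and 10.18. Col6a3, the large chain of the same filaments, fell by 0.12 (adjusted p = 0.00971), from 10.65, 10.56, 10.61 and 10.58 to 10.54, 10.49, 10.43 and 10.47. The Col6a3 call was lost without the 4 lowest arrays of the gradient (adjusted p = 0.0782) and without control vehicle 1 and 4, knockdown vehicle 1 and control MG132 4 (0.107). Col6a2, the third classical chain, differed by -0.07 (adjusted p = 0.219).

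**Figure D2:**
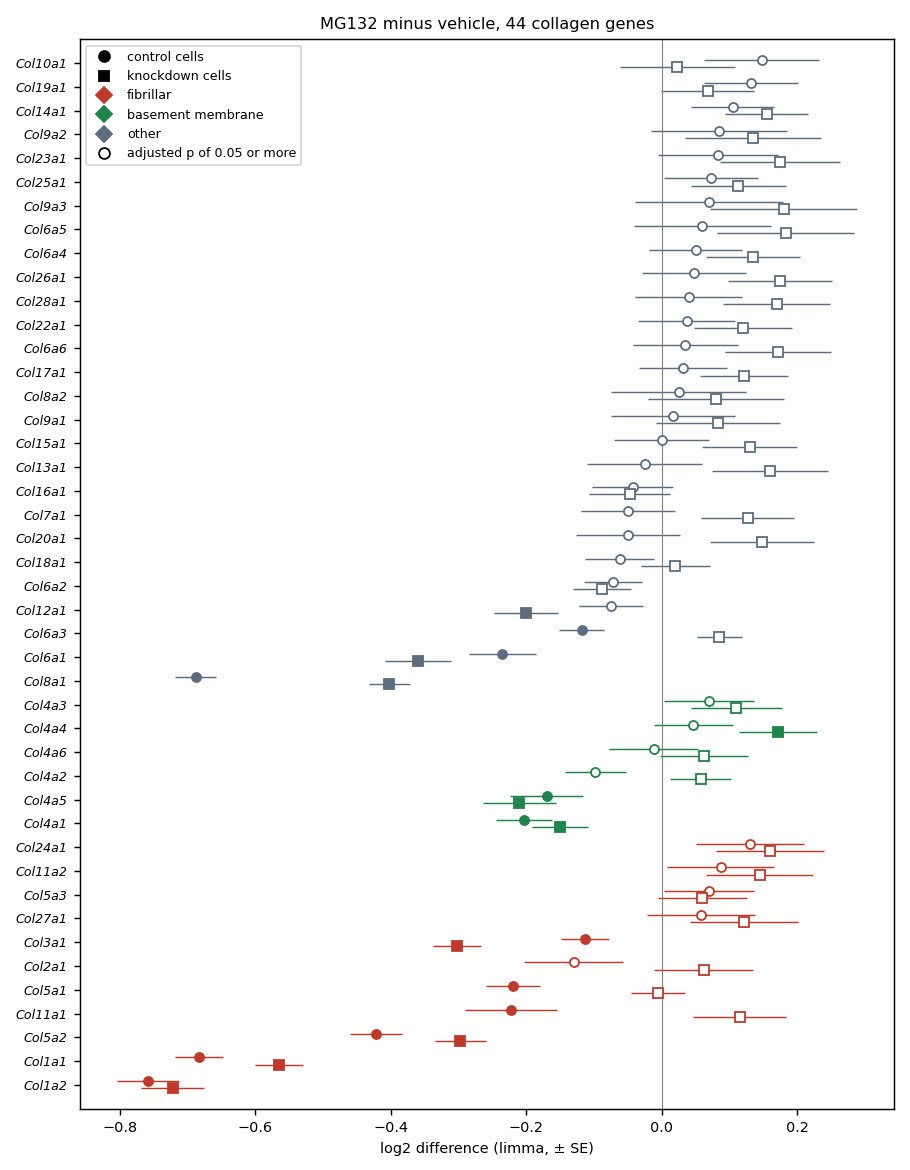
The log2 difference of MG132 minus vehicle with its standard error (horizontal axis) is drawn for each collagen gene in control and in knockdown cells. Filled symbols passed an adjusted p of 0.05 by limma, and Col1a2 stands at -0.76 in control and -0.72 in knockdown cells.

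In knockdown cells Col1a2, Col1a1 and Col8a1 again had the lowest differences with MG132, on arrays not shared with the control comparison. Of the 44 genes 9 fell (20.5%), against 24.3% of all genes, and 1 rose, against 16.4%. Counts of the 9 were 4 of 11 fibrillar, 2 of 6 type IV and 3 of 27 other collagens. Of the 11 collagens with means above 9 log2, 7 fell, beside 42.1% of all such genes. Of the other 33, 2 fell, beside 11.8%. In both lines 8 fell, which is 8 of the 11 in control cells and 8 of the 9 that fell in knockdown cells. The share of all genes that fell in both lines was not counted, so this overlap is not read as particular to collagens. The median difference was 0.10 log2, beside 0.03 over all genes.

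Col1a2 read 11.74, 11.78, 11.75 and 11.88 in knockdown vehicle arrays and 10.94, 11.10, 11.12 and 11.10 with MG132, a fall of 0.72 ± 0.05 (SE, adjusted p = 1.76e-09). For Col1a1 the arrays read 12.24, 12.21, 12.23 and 12.26 with vehicle and 11.58, 11.71, 11.66 and 11.73 with MG132, a fall of 0.57 (adjusted p = 1.8e-09). Both type I chains thus separated completely by treatment in the knockdown line as well.

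Col8a1 fell by 0.40 (adjusted p = 1.35e-08), from 12.06, 12.04, 12.08 and 12.06 to 11.66, 11.65, 11.66 and 11.66. Col6a1 fell by 0.36 (adjusted p = 1.2e-05), from 10.30, 10.27, 10.21 and 10.39 to 9.80, 9.98, 10.03 and 9.92. Col3a1 fell by 0.30 (adjusted p = 2.03e-06), from 9.30, 9.28, 9.30 and 9.28 to 8.98, 9.03, 8.98 and 8.96. No groups overlapped for these 3 genes. Col5a2 fell by 0.30 (adjusted p = 6.56e-06), from 10.78, 10.80, 10.81 and 10.80 to 10.46, 10.48, 10.51 and 10.55.

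The 2 type IV chains that fell were Col4a5, by 0.21 (adjusted p = 0.00448), and Col4a1, by 0.15 (adjusted p = 0.00746). Col4a5 read 8.90, 8.98, 8.88 and 9.07 with vehicle and 8.73, 8.76, 8.70 and 8.80 with MG132. A second quantile normalization ended the Col4a1 call (-0.11, adjusted p = 0.123). Col12a1, a fibril-associated collagen, fell by 0.20 (adjusted p = 0.00229), from 9.78, 9.90, 9.90 and 9.98 to 9.68, 9.67, 9.66 and 9.75.

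The 1 collagen that rose was Col4a4, a chain of the kidney and lung basement membrane, with a difference of 0.17 (adjusted p = 0.0254) between overlapping groups. Its call was lost without knockdown vehicle 3 (adjusted p = 0.0983), knockdown vehicle 4 (0.076), knockdown MG132 1 (0.0612) or knockdown MG132 4 (0.0793), with only the groups compared (0.0506) and under both other scalings (0.0887 with centring and 0.112 with a second quantile normalization). The number of collagens that rose depended on knockdown vehicle 1: without that array 18 passed, 17 of them among the 33 genes with a mean of 9 log2 units or less, with differences of 0.17 to 0.26. Over all genes the share higher went from 16.4% to 22.6% at that setting. Without other single arrays the number was 0 (knockdown vehicle 3, knockdown vehicle 4 or knockdown MG132 1), 4 (control MG132 4) or 2 (control vehicle 1, control vehicle 4, knockdown vehicle 2, control MG132 1, control MG132 3 or knockdown MG132 3). Over all genes the share higher at these settings ran from 13.5% (without knockdown vehicle 3) to 18.2% (without control MG132 4). What sets knockdown vehicle 1 apart was not tested.

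The responses of the 2 lines were compared by the difference of the MG132 effects. It passed for 5 collagens: 4 were positive (9.1% of the 44, against 4.45% of all genes) and 1 was negative (2.3% against 10.1%). A positive value here means that MG132 minus vehicle was higher in knockdown than in control cells. For Col8a1 the falls were 0.69 in control and 0.40 in knockdown cells, a difference of 0.28 ± 0.04 (SE, adjusted p = 0.000315). Col6a3 fell in control cells and differed by 0.09 (adjusted p = 0.0509) in knockdown cells, and the difference of 0.20 passed (adjusted p = 0.00768).

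Col5a1 read 9.31, 9.15, 9.16 and 9.19 in knockdown vehicle and 9.15, 9.23, 9.19 and 9.22 in knockdown MG132 arrays, which overlapped. The fall of 0.22 in control cells and the value of -0.01 in knockdown cells gave a difference of 0.21 (adjusted p = 0.0155). For Col11a1 the knockdown value was 0.12 (adjusted p = 0.193) and the difference 0.34 (adjusted p = 0.0254), which was lost without any 1 of control vehicle 4 (0.0564), knockdown vehicle 3 (0.0527), knockdown vehicle 4 (0.0543), control MG132 2 (0.0548) or knockdown MG132 2 (0.0543). Col3a1 was the negative one, at -0.19 (adjusted p = 0.016). After a second quantile normalization it was -0.10 (adjusted p = 0.398), and without control vehicle 1 and 4, knockdown vehicle 1 and control MG132 4 it was -0.15 (adjusted p = 0.0839). The type I chains differed by 0.12 (Col1a1, adjusted p = 0.145) and 0.04 (Col1a2, adjusted p = 0.809).

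**Figure D3:**
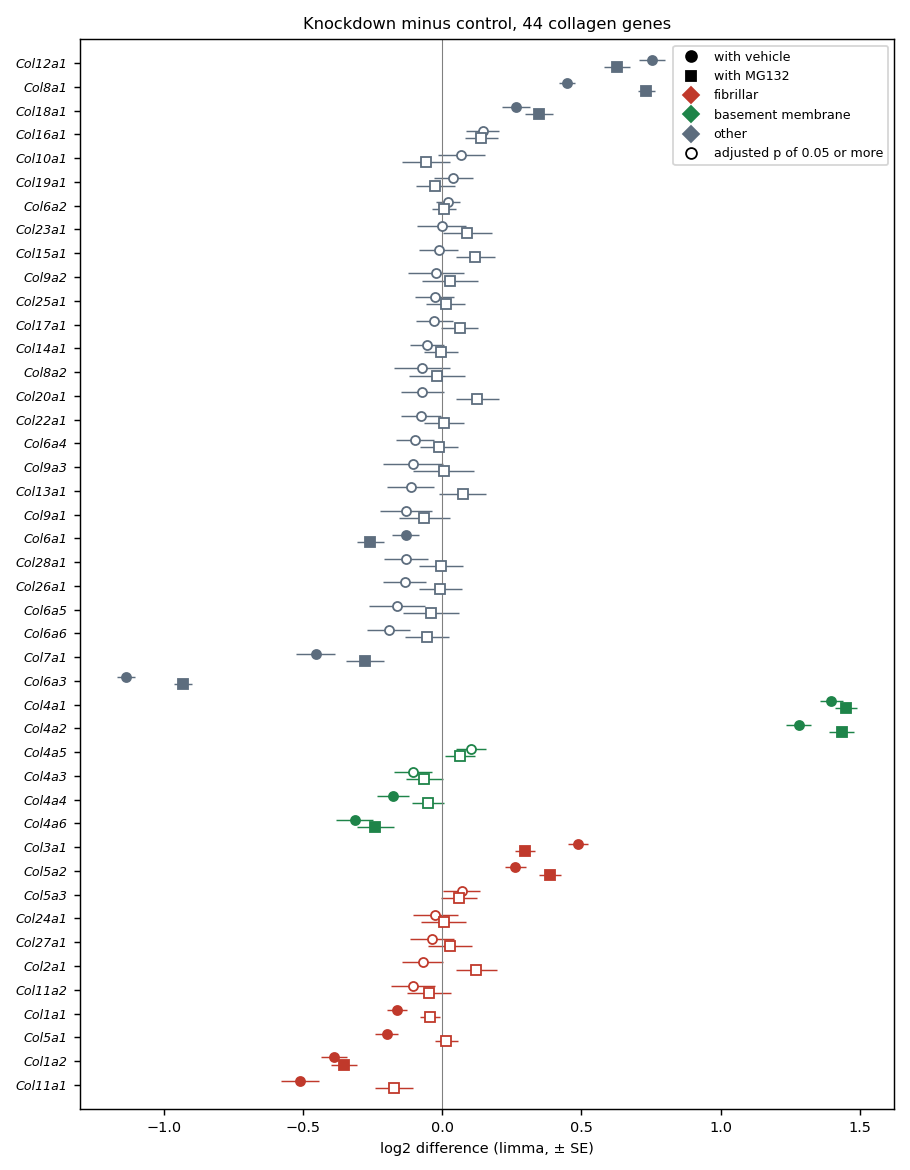
The log2 difference of knockdown minus control with its standard error (horizontal axis) is drawn for each collagen gene with vehicle and with MG132. Col4a1 at 1.40 and Col4a2 at 1.28 stand at the high end with vehicle and Col6a3 at -1.14 at the low end.

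The largest differences between the lines in either direction were those of type IV and type VI collagen. With vehicle Col4a1 was 2.63-fold and Col4a2 2.43-fold higher in knockdown cells, and Col6a3 was 2.20-fold lower. Of the 44 genes 7 were higher (15.9%, against 21.5% of all genes) and 9 lower (20.5%, against 17.9%). With MG132 7 were higher (15.9% against 17.7%) and 5 lower (11.4% against 20.3%). Pooled over levels, these shares are near or below those of all genes. With vehicle 6 of the 11 collagens with means above 9 log2 were higher and 5 lower, beside 34.5% and 30% of all such genes. Of the other 33, 1 was higher and 4 lower, beside 12.3% and 9.3%. With MG132 6 and 3 of the 11 passed, beside 29% and 33.7%, and 1 and 2 of the 33, beside 9.7% and 10.9%. This split was chosen after the values were seen, and no test sets these collagens against other genes. The 2 line comparisons use different arrays, and 12 genes passed in both with the same direction: 12 of the 16 called with vehicle and all 12 called with MG132. The share of all genes that passed in both was not counted, so this agreement is not read as particular to collagens. Each line comparison shares an arm with an MG132 comparison, and all comparisons rest on 4 arrays a group.

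Col4a1 and Col4a2 form the trimer of nearly all basement membranes. Col4a1 read 8.89, 8.87, 8.86 and 8.97 in control vehicle arrays and 10.31, 10.26, 10.35 and 10.26 in knockdown vehicle arrays, a difference of 1.40 ± 0.04 (SE, adjusted p = 3.47e-14). Col4a2 read 8.78, 8.79, 8.65 and 8.80 against 10.04, 10.00, 10.10 and 10.00, a difference of 1.28 ± 0.05 (adjusted p = 3.34e-13). With MG132 the Col4a1 arrays read 8.74, 8.65, 8.61 and 8.78 in control and 10.13, 10.12, 10.20 and 10.13 in knockdown cells, and Col4a2 read 8.62, 8.65, 8.60 and 8.76 against 10.08, 10.04, 10.17 and 10.08. Knockdown arrays were above control arrays in all 4 sets, by over 1 log2 unit.

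Not all type IV chains moved alike. Col4a6 was lower by 0.32 (adjusted p = 0.000691) with vehicle, with control arrays at 7.56, 7.38, 7.47 and 7.45 and knockdown arrays at 7.30, 7.11, 7.05 and 7.14, and by 0.24 (adjusted p = 0.00646) with MG132. In the MG132 arrays Col4a6 read 7.53, 7.30, 7.39 and 7.59 in control and 7.29, 7.21, 7.22 and 7.13 in knockdown cells, without overlap. Col4a4 was lower by 0.18 with vehicle (adjusted p = 0.0215), and this was lost without control vehicle 4 (0.0637), knockdown vehicle 3 (0.087) or knockdown vehicle 4 (0.0657). For Col4a5 the vehicle difference was 0.10 (adjusted p = 0.159) and for Col4a3, which was called in no comparison, the group means ran from 7.43 to 7.61.

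Fibrillar collagens divided. Col3a1 was higher in knockdown cells by 0.49 ± 0.04 (adjusted p = 4.42e-09) with vehicle and 0.30 (adjusted p = 2.32e-06) with MG132. Col5a2 was higher by 0.26 (adjusted p = 2.33e-05) and 0.39 (adjusted p = 2.85e-07), its knockdown vehicle arrays reading 10.78, 10.80, 10.81 and 10.80 over control arrays at 10.54, 10.56, 10.55 and 10.49. The type I chains went the other way with vehicle: Col1a2 was lower by 0.39 (adjusted p = 2.05e-06) and Col1a1 by 0.16 (adjusted p = 0.00128). With MG132 Col1a2 was lower by 0.35 (adjusted p = 6.78e-06) and Col1a1 differed by -0.04 (adjusted p = 0.384). The Col1a1 vehicle call was lost without control vehicle 1 and 4, knockdown vehicle 1 and control MG132 4 (-0.13, adjusted p = 0.0506).

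Col11a1 was lower by 0.51 (adjusted p = 8.17e-06) with vehicle, where the knockdown arrays read 8.12, 7.93, 7.74 and 7.86 under control arrays at 8.45, 8.33, 8.38 and 8.53. With MG132 its difference was -0.17 (adjusted p = 0.0562). Col5a1 was lower by 0.20 (adjusted p = 0.000486) with vehicle and differed by 0.01, which did not pass, with MG132.

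Among the other types the lines differed most, with vehicle, in Col6a3 of type VI and Col12a1 of type XII collagen, and with MG132 in Col6a3 and Col8a1. Col6a3 read 10.65, 10.56, 10.61 and 10.58 in control vehicle arrays and 9.49, 9.50, 9.43 and 9.44 in knockdown vehicle arrays (-1.14 ± 0.03, adjusted p = 2.91e-14). With MG132 the control arrays read 10.54, 10.49, 10.43 and 10.47 and the knockdown arrays 9.55, 9.56, 9.57 and 9.52 (-0.93, adjusted p = 5.17e-13). The lowest control array lay more than 0.8 log2 above the highest knockdown array in both media. Col6a1 differed by -0.13 with vehicle (adjusted p = 0.041) and -0.26 with MG132 (adjusted p = 0.000372). Its vehicle call was lost without any 1 of control vehicle 2 (adjusted p = 0.069), 3 (0.101) or 4 (0.109), knockdown vehicle 1 (0.0602), 2 (0.092) or 3 (0.14) or control MG132 1 (0.05), without control vehicle 1 and 4, knockdown vehicle 1 and control MG132 4 (0.103) and after centring the arrays (0.124). Col6a2 differed by 0.02 and 0.01, with adjusted p of 0.753 and 0.923, and its groups overlapped in each comparison.

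Col12a1, whose product binds type I fibrils, was higher in knockdown cells. Its vehicle arrays read 9.16, 9.20, 9.15 and 9.04 in control and 9.78, 9.90, 9.90 and 9.98 in knockdown cells (0.75 ± 0.05, adjusted p = 6.68e-10), and with MG132 9.02, 9.14, 9.09 and 9.0 against 9.68, 9.67, 9.66 and 9.75 (0.63, adjusted p = 8.76e-09). Col8a1 was higher by 0.45 (adjusted p = 2.01e-09) with vehicle and 0.73 (adjusted p = 3.8e-12) with MG132, when control arrays lay at 10.90 to 10.97 and knockdown arrays at 11.65 to 11.66. Col18a1, a basement membrane proteoglycan whose fragment is endostatin, was higher by 0.27 (adjusted p = 0.000397) and 0.35 (adjusted p = 2.77e-05). Col7a1, the anchoring fibril of skin, was lower by 0.46 (adjusted p = 3.54e-05) and 0.28 (adjusted p = 0.00367), its vehicle arrays reading 9.31, 9.17, 9.09 and 9.23 in control and 8.91, 8.80, 8.64 and 8.63 in knockdown cells. With MG132 they read 9.18, 9.07, 9.06 and 9.29 against 8.93, 8.95, 8.78 and 8.83.

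Some markers of other cell types moved with the line. The 6 smooth muscle and myofibroblast markers averaged 9.20 to 9.28 in control vehicle arrays and 8.83 to 8.98 in knockdown vehicle arrays. Tagln, at 12.31 and 10.24, carried most of this shift: 2 of the 6 were lower and 1 higher, with a median difference of -0.07, and Acta2 lay at 13.28 and 13.19. The 12 fibroblast markers averaged 9.28 to 9.31 and 9.54 to 9.57, with 5 higher and 1 lower. Chondrocyte markers lay at 7.35 to 7.47 and 7.12 to 7.27, with 1 of 8 called, Sox9, which was lower (11.31 and 10.04). Macrophage markers lay at 6.69 to 6.76 and 6.83 to 6.98, with 2 of 6 higher. Cd14, at 7.84 and 8.64, carried most of this shift. Cd68 lay at 8.18 and 8.30, Lyz2 at 5.95 and 6.09 and Csf1r at 6.27 and 6.30. Ptprc, at 6.31 and 6.19, and Adgre1, at 5.80 and 5.74, went the other way. Of the endothelial markers 1 of 7 was lower with vehicle. Among 7 epithelial, 5 osteoblast and 6 skeletal muscle markers 0 were called. Over all genes 21.5% were higher and 17.9% lower with vehicle, so the counts are not read as particular to these markers. The part of all these markers in the collagen differences was not tested, and in bulk RNA fewer cells of a type and less RNA per cell cannot be told apart.

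Chains of 1 protein did not keep the same spacing between groups. These spacings were chosen after the values were seen, are differences of log2 readings within an array and show unequal change only. Col1a1 minus Col1a2 averaged 0.22 ± 0.02 in control vehicle and 0.45 ± 0.05 in knockdown vehicle arrays (SD, n = 4), and 0.30 ± 0.04 and 0.60 ± 0.04 with MG132. The arrays of the 2 lines did not overlap in either medium. Col6a1 minus Col6a3 averaged -0.17 ± 0.09 in control vehicle arrays and 0.83 ± 0.08 in knockdown vehicle arrays, with MG132 values of -0.29 and 0.38. Col4a1 minus Col4a2 averaged 0.14 in control vehicle arrays (0.08 to 0.21) and 0.26 in knockdown vehicle arrays (0.25 to 0.27), and with MG132 0.04 (0.00 to 0.12) and 0.05 (0.03 to 0.08). Its line groups did not overlap with vehicle and did with MG132, and in knockdown cells the vehicle and MG132 arrays did not overlap. Col5a1 minus Col5a2 averaged -1.13 and -1.59 with vehicle and -0.93 and -1.30 with MG132, in control and knockdown cells.

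Of the 44 collagens 27 were called in no comparison. They include the cartilage chains Col2a1, Col9a1, Col9a2, Col9a3, Col10a1 and Col11a2, the fibrillar Col5a3, Col24a1 and Col27a1, and the fibril-associated Col14a1, Col16a1, Col19a1, Col20a1 and Col22a1. Col4a3, the type VI chains Col6a2, Col6a4, Col6a5 and Col6a6, and Col8a2, Col15a1, Col26a1 and Col28a1 belong to them as well. So do the membrane-spanning Col13a1, Col17a1, Col23a1 and Col25a1. Their differences ranged from -0.13 to 0.15 with MG132 in control cells and from -0.09 to 0.18 in knockdown cells, with -0.19 to 0.14 between the lines with vehicle and -0.07 to 0.14 with MG132. The smallest adjusted p among them was 0.0529. No detection calls were used, so no statement is made on which of them the cells express. The share of all genes called in no comparison was not counted. All 27 had means under 9 log2. Of all genes at 9 or less, 7.8% to 12.3% were called in a given direction in the MG132 and line comparisons. For the difference of responses these shares were 2.2% higher and 6% lower.

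These 27 followed the within-group gradient. Their Pearson r with it across the 16 arrays, after subtraction of group means, had a median of -0.93, and 23 of 27 lay under -0.8. For the 17 collagens called at least once the median was -0.41, with 3 under -0.8, and over all genes it was -0.14. Averaged over the 27, control MG132 array 4 lay 0.19 log2 and knockdown vehicle array 1 0.18 above their group means, while control MG132 array 2 was 0.13 and knockdown vehicle array 4 was 0.12 below. The readings also divided by level: 26 of the 33 genes with a mean of 9 log2 or less lay under -0.8, and 0 of the 11 brighter ones, a split chosen after the values were seen. Over all genes 14.4% of those with a mean of 9 or less lay under -0.8, and 1% of the brighter ones. Of the 11 brighter collagens 8 fell with MG132 in control and 7 in knockdown cells, beside 3 and 2 of the 33. Brighter genes were called more often in general: 34.9% of all genes above 9 were lower in control and 42.1% in knockdown cells, beside 7.8% and 11.8% of the rest.

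**Figure D4:**
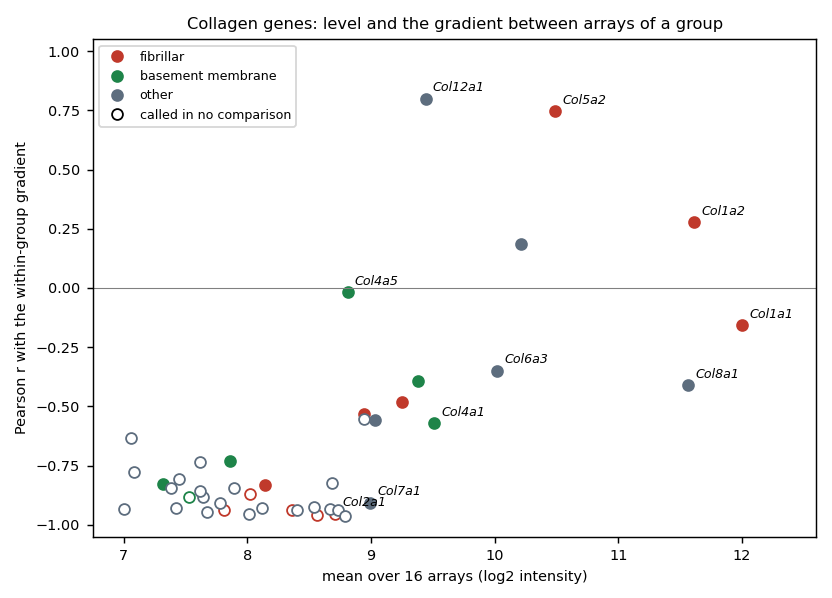
Each point is a collagen gene, placed by its mean over 16 arrays (horizontal axis, log2 intensity) and by its Pearson r with the within-group gradient (vertical axis). Open points, called in no comparison, sit at means under 9 and at r below -0.5, and Col12a1 and Col5a2 sit at r of 0.80 and 0.75.

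Genes that process and bind collagen were counted from lists of 73 genes, of which 70 were measured. With MG132 in control cells 18 rose and 27 fell (25.7% and 38.6%, against 16.8% and 19.0% of all genes). In knockdown cells 15 rose and 28 fell (21.4% and 40%, against 16.4% and 24.3%). Between the lines 21 were higher and 25 lower with vehicle (30.0% and 35.7%, against 21.5% and 17.9%), and 18 and 22 with MG132 (25.7% and 31.4%, against 17.7% and 20.3%). For the difference of responses 9 were positive and 10 negative (12.9% and 14.3%, against 4.45% and 10.1%). Many of the list genes read above 9 log2. Of all genes with a mean above 9, 28.6% were higher and 34.9% lower with MG132 in control cells. In knockdown cells these shares were 25.2% and 42.1%. Between the lines they were 34.5% and 30% with vehicle, and 29% and 33.7% with MG132. For the difference of responses they were 7.6% and 16%. The lists thus moved in both directions, and no test sets them against other genes. The medians of the list were -0.01 and -0.02 log2 for the MG132 comparisons and -0.03 for both line comparisons.

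Single genes of each step changed with MG132 in both directions. Serpinh1, the collagen chaperone Hsp47, rose by 0.34 in control and 0.37 in knockdown cells. Sec24d, a subunit of the COPII coat that carries procollagen, rose by 0.65 and 0.50. Creb3l1, a transcription factor on the same folding and export list, fell in both lines. Its group means were 8.42 with vehicle and 8.212 with MG132 in control cells, and 10.13 and 9.555 in knockdown cells. P4ha2, a catalytic subunit of prolyl 4-hydroxylase, rose by 0.80 and 0.39, and the difference of -0.41 passed (adjusted p = 0.0119). Plod1, a lysyl hydroxylase, rose by 0.52 in control cells and differed by 0.07 (adjusted p = 0.221) in knockdown cells, a difference of -0.46 (adjusted p = 9.67e-05). P3h2, a prolyl 3-hydroxylase, fell by 0.83 and 0.87, and P3h4, a partner in lysyl hydroxylation, by 0.51 and 0.35. Over all 14 hydroxylation and glycosylation genes 6 rose and 6 fell in control cells, and 3 rose and 6 fell in knockdown cells (42.9% and 42.9%, then 21.4% and 42.9%). Of the 9 folding and export genes 3 rose and 3 fell in control cells, and 2 and 3 in knockdown cells (33.3% and 33.3%, then 22.2% and 33.3%). All genes gave 16.8% and 19.0% in control and 16.4% and 24.3% in knockdown cells.

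For propeptide cleavage 3 of 7 genes fell in each line (42.9%, against 19.0% of all genes in control and 24.3% in knockdown cells). Adamts14, which removes the amino-terminal propeptide, fell by 0.69 and 0.26, Tll1, a tolloid-like protease, by 0.69 and 0.28, and Pcolce, an enhancer of carboxy-terminal cleavage, by 0.30 and 0.21. Of the 4 cross-linking genes 3 fell and 1 rose in both lines (75% and 25%, against 19.0% lower and 16.8% higher of all genes in control and 24.3% and 16.4% in knockdown cells). Loxl1 fell by 0.59 and 0.60 and Loxl3 by 0.42 and 0.46, and Lox, a main lysyl oxidase of fibrillar collagen, rose by 0.32 and 0.39. Sparc, a collagen-binding matricellular protein, fell by 0.27 and 0.28.

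**Figure D5:**
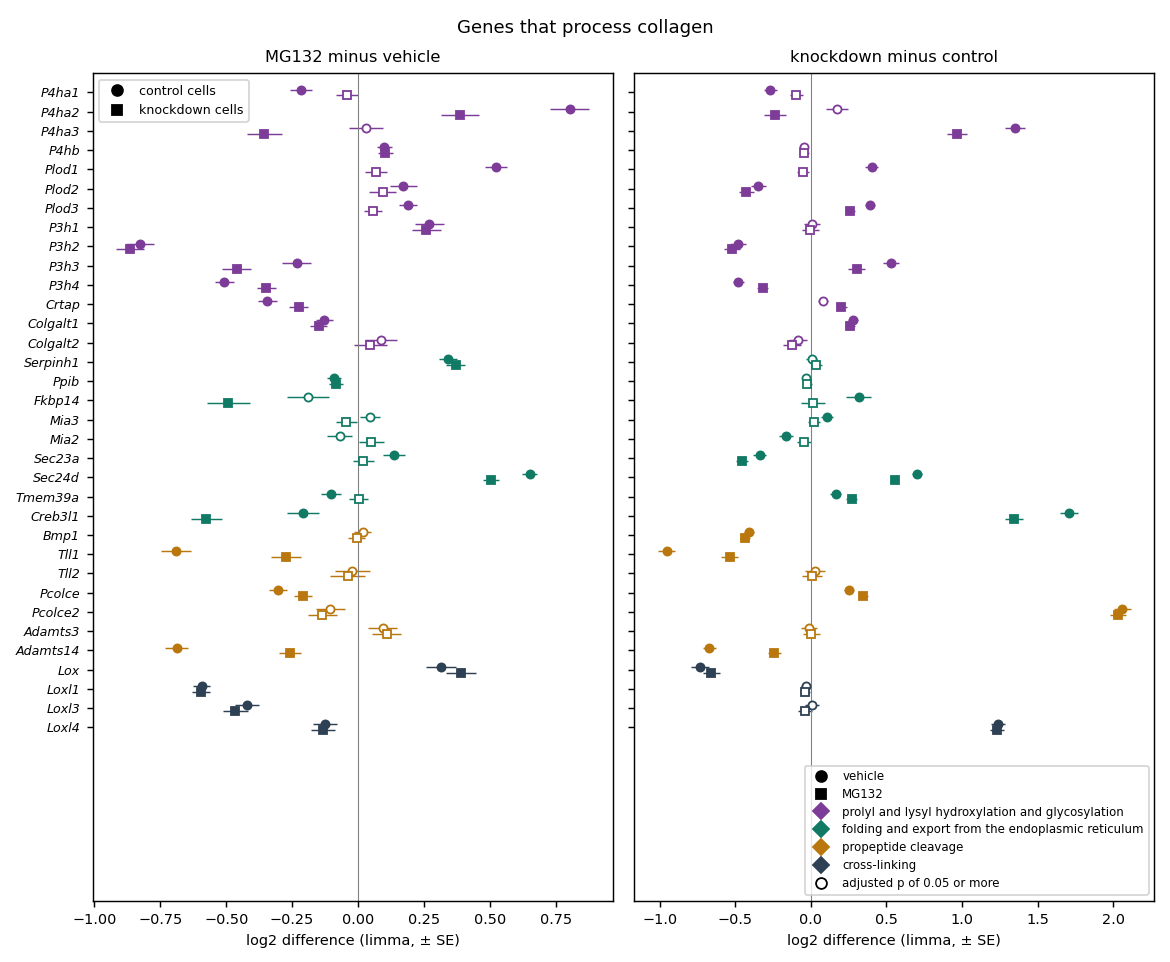
The log2 difference with its standard error (horizontal axis) is drawn for collagen processing genes, with MG132 minus vehicle on the left and knockdown minus control on the right, colours marking the step. P4ha2 at 0.80 and P3h2 at -0.83 stand apart in control cells, and Pcolce2 at 2.06 and Creb3l1 at 1.71 between the lines.

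Between the lines the steps of processing also went both ways. Creb3l1, a membrane-bound transcription factor known to drive type I collagen genes in bone, was higher in knockdown cells by 1.71 with vehicle and 1.34 with MG132. Pcolce2 was higher by 2.06 and 2.03, Loxl4 by 1.24 and 1.23, and P4ha3 by 1.35 and 0.96. Lox was lower by 0.74 and 0.66, Tll1 by 0.95 and 0.54 and Bmp1, the main carboxy-terminal propeptide protease, by 0.41 and 0.43.

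Of the genes of basement membranes Nid1, a nidogen that links laminin with type IV collagen, was higher in the knockdown line by 1.32 and 1.48 and rose with MG132 by 0.53 in control and 0.69 in knockdown cells. Lamc1, a laminin chain, was higher by 0.44 and 0.53, while Lama2 was lower by 0.84 and 0.84 and Lamb1 by 0.34 and 0.22. Of the 10 partners 3 were higher and 5 lower with vehicle (against 21.5% and 17.9% of all genes), and 2 and 4 with MG132 (17.7% and 20.3%). The receptor Mrc2, which takes up collagen for degradation, was lower by 0.99 and 0.76 and Ddr2, a kinase receptor of fibrillar collagen, higher by 0.51 and 0.34.

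Genes of TGF-beta signalling, a pathway known to raise collagen transcription, were mixed. Tgfb3, a ligand, fell with MG132 by 1.22 in control and 0.72 in knockdown cells, with the difference of 0.49 passing (adjusted p = 0.000374), and was lower in knockdown cells by 1.5 and 1.01. Tgfbr2, a receptor, fell by 0.66 and 0.43. Smad4, the shared partner of the Smads, rose by 0.31 in control and 0.30 in knockdown cells. Of the 11 genes 3 rose and 5 fell in control cells (27.3% and 45.5%, against 16.8% and 19.0% of all genes), and 3 and 6 in knockdown cells (27.3% and 54.5%, against 16.4% and 24.3%). Between the lines 2 were higher and 6 lower with vehicle (18.2% and 54.5%, against 21.5% and 17.9% of all genes). With MG132 3 were higher and 5 lower (27.3% and 45.5%, against 17.7% and 20.3%). All 11 had group means above 9 log2. Of all genes above 9, 28.6% rose and 34.9% fell with MG132 in control cells, and 25.2% and 42.1% in knockdown cells. Between the lines 34.5% of them were higher and 30% lower with vehicle, and 29% and 33.7% with MG132.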

How the data were processed

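Total RNA of 16 plates was read on Affymetrix whole-transcript arrays. The authors deposited log2 intensities, 1 per probe set and array. The submitters' processing notes name RMA and Partek, without a version or setting. RMA equalises arrays, so a shift of most genes would be hidden, and dim and very bright probe sets can be compressed. Groups came from the sample titles. Of 35556 probe sets 21789 had 1 symbol in the platform's annotation, 21698 of them matched in the RefSeq gene table (GRCm38.p6), and for the 999 genes with several the brightest was used, which left 19938 genes.

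A mean per group was modelled over the 16 arrays (limma 3.58.1, R 4.3.3, lmFit and eBayes, 12 residual and 4.12 prior degrees of freedom, two-sided), and p-values were adjusted by Benjamini-Hochberg over all genes; calls need an adjusted p under 0.05. The fit was also run on simulated data with known changes, with noise drawn separately for each gene. That simulation holds no gradient shared by the genes of an array, so it cannot show how the calls fare under one. The within-group gradient is the leading principal component after group means were subtracted from these same arrays. Members and gene lists were chosen with earlier results of these data known. Array values are given for up to 2 members per class and direction with the most extreme differences and no overlap, and for the type I, III, IV, V and VI chains that the text follows; of each processing list, genes among the 3 with the smallest adjusted p in a comparison are named. Alternatives were a second quantile normalization, median centring, only genes above the 25th percentile or above a mean of 6, averaged probe sets, fits of only the groups compared, a trended robust prior, a 1.5-fold minimum, a replicate block and each array left out in turn. Added after the data were seen were the gradient as a covariate and leaving out the 4 lowest arrays of the gradient or control vehicle 1 and 4, knockdown vehicle 1 and control MG132 4. Figures were made in Python 3.11.15 (matplotlib 3.10.9).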

Additional observations from a re-analysis of the deposited data

Results flagged for a closer look

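Single arrays stood apart from the other 3 of their group in 13 of 176 sets of a collagen gene and a group, where chance gives about 1 in 20. The low ones were Col1a2 in knockdown MG132 array 1 (10.94, the others 11.10 to 11.12), Col5a1 in control MG132 array 1 (9.14), Col5a2 in control MG132 array 4 (9.99), Col4a2 in control vehicle array 3 (8.65), Col4a5 in control MG132 array 3 (8.51), Col16a1 in knockdown MG132 array 3 (8.50) and Col8a1 in knockdown MG132 array 2 (11.65, with the others all at 11.66). The high ones were Col4a1 in knockdown MG132 array 3 (10.20), Col4a3 in control MG132 array 4 (7.81), Col22a1 in knockdown vehicle array 1 (8.10), Col6a4 in control MG132 array 4 (7.59), Col6a6 in knockdown vehicle array 1 (8.44) and Col28a1 in control vehicle array 1 (7.19). The gap of Col8a1 is 0.01 log2, the step to which values were rounded.

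The MG132 response differed between the lines, by limma's test of the difference of responses, for Col3a1 (-0.19), Col5a1 (0.21), Col11a1 (0.34), Col6a3 (0.20) and Col8a1 (0.28).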

How the results depend on the processing

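Of the 54 called collagen results, 43 kept their call in every alternative but the fold minimum, 11 lost it in at least 1 and 0 reversed. With a 1.5-fold minimum 3 collagens fell with MG132 in control cells and 1 in knockdown cells, and 0 rose in knockdown cells. At that minimum 3 were higher and 1 lower in the knockdown line with vehicle, and 4 and 1 with MG132. For the difference of responses 0 were positive and 0 negative. The share of all genes at that minimum was not counted. The number that rose in knockdown cells was 1, and 3 under each filter on dim genes, 2 with only the groups compared, 0 with centring, 15 without the 4 lowest arrays of the gradient, 24 without control vehicle 1 and 4, knockdown vehicle 1 and control MG132 4, and 22 when the gradient was a covariate, a term drawn from these same arrays and so no separate evidence. Over all genes the share higher was 16.4%, and 21.7%, 27.6% and 24.8% at these last 3 settings. Over arrays left out singly the collagen number ran from 0 to 18, and the share of all genes from 13.5% to 22.6%. With the covariate 3 rose in control cells (against 21.9% of all genes) and 16 were lower with vehicle (against 21.4%). At that setting 11 were higher with MG132 (against 20.4%) and 10 were positive for the difference of responses (against 7.3%). Without the 4 lowest arrays 14 were lower with vehicle (against 18.7% of all genes). Without control vehicle 1 and 4, knockdown vehicle 1 and control MG132 4, 1 rose in control cells (against 16.3%). In that fit 11 were higher with MG132 (against 19.5%) and 0 were negative for the difference (against 10.6%). A second quantile normalization also left 0 negative (against 8.4% of all genes). Same-numbered arrays correlated over 0.1 in 10 of 24 pairs (from -0.50 to 0.40) and in 3 of 4 in some pairs of groups but in all 4 of none, so the numbers were not taken to pair the arrays. With the replicate block no collagen call was lost and 5 were gained: Col10a1, which rose with MG132 in control cells (1 in place of 0), Col11a1 between the lines with MG132, Col16a1 between the lines in both media and Col6a6 with vehicle. The number of arrays limits what these counts can show.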
